A study of Homo sapiens with 4 samples.

Results

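SHP1705 peaks on annotated pseudogenes were taken as the peaks of the SHP1705 list on chromosomes 1 to 22 and X whose summit lay inside a gene that RefSeq annotates as a pseudogene. There were 4569 such peaks among 85840 SHP1705 peaks, or 5.32% (Wilson 95% interval 5.17 to 5.47, counting error only). The peaks came from STARR-seq in MDA-MB-231, an established human breast cancer cell line, in which sheared genomic DNA of the same line is carried on plasmids and a fragment with enhancer activity is copied into its own reporter RNA. The 4 groups were SHP1705, a stabilizer of the circadian repressor proteins CRY, at 10 µM, MG132, a proteasome inhibitor, at 100 nM, the combination of both at those doses, and DMSO as the control. Values given as with both drugs are those of the combination library. All 4 shared the plasmid library and the transfection mix, drug media went on before transfection, and poly-A RNA was taken after 8 h. Each group was 1 library and 1 peak list, so there was no spread between replicates, no test was made, and every difference below compares single libraries.

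A processed pseudogene is a copy of a messenger RNA that was reverse transcribed and inserted back into the genome, so it lacks the introns of its parent gene and carries the parent's exons as an unbroken stretch. Genes with abundant messenger RNA in the germ line, such as those for ribosomal proteins, have left many such copies. Other pseudogenes arose by duplication of genomic DNA and keep introns, and these can be long. A peak's height is given as its pileup, the number of sequenced fragments that cover the summit. Duplicate fragments were kept, so fragments are not independent molecules.

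The bases at which the parents of the tallest copies begin are shown because a full-length copy carries the transcript from its first base on. Of the parents of the 10 tallest members, 7 had an entry in the RefSeq promoter table. Each line holds 40 bases before and 20 bases from the annotated start on, 5′ to 3′ on the gene's strand. The capitals mark the longest run made only of C and T within 10 bases before to 20 bases after the start, and the first such run where lengths are equal, as in TPT1.
EEF1A1: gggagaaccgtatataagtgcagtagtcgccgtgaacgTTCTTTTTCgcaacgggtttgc
TMSB4X: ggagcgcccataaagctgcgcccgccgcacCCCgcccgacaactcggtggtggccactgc
RPL13A: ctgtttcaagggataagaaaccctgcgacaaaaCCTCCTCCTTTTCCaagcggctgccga
FTL: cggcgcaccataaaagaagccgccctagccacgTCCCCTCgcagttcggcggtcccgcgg
RPLP1: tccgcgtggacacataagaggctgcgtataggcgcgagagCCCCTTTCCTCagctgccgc
TPT1: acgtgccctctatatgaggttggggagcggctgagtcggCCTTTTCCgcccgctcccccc
RPS18: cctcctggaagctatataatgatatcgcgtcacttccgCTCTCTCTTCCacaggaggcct
In the order printed these windows lie at chr6:73521013-73521072 (minus strand), chrX:12975070-12975129 (plus strand), chr19:49487568-49487627 (plus strand), chr19:48965269-48965328 (plus strand), chr15:69452778-69452837 (plus strand), chr13:45341164-45341223 (minus strand) and chr6:33272035-33272094 (plus strand) of GRCh38.p14. The run was 14 bases long in RPL13A, 11 in RPLP1 and RPS18, 9 in EEF1A1, 8 in TPT1, 7 in FTL and 3 in TMSB4X. A start within a C and T run is the textbook feature of messenger RNAs for ribosomal proteins and translation factors, through which their translation is regulated. The marked run need not include the start, and in FTL and TMSB4X it ended before it.

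A C and T run of at least 8 bases was counted anywhere in that window, whether or not it included the start. It stood in 51 of 64 ribosomal protein parents with an entry (79.7%), against 1992 of 15812 protein-coding genes (12.6%). On the other strand, where the run reads as A and G, the shares were 3.13% of those parents and 8.68% of all protein-coding genes. Among 85 parents that were not ribosomal and had a copy of at least 10000 fragments, 14 had the run (16.5%). In SHP1705, a peak overlapped the promoter window of 250 bases before to 50 bases after the start in 9 of the 64 ribosomal protein parents (14.1%) and in 3029 of the 15812 genes (19.2%). Of the 7 windows printed from, that of FTL held an SHP1705 peak, of 133972 fragments, and the other 6 held none. RPL13A had an MG132 peak of 188 fragments there and TMSB4X a DMSO peak of 218 fragments.

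The SHP1705 list reached more pseudogenes than the other lists, in number and in share. Summits lay on 3769 of 16664 annotated pseudogenes in SHP1705 (22.6%), on 1605 in MG132 (9.63%), on 1395 with both drugs (8.37%) and on 1387 in DMSO (8.32%). Peaks on pseudogenes made up 5.32% of the SHP1705 list, 2.84% of the MG132 list, 2.96% of the combination list and 3.37% of the DMSO list. The SHP1705 library was also the deepest, with 118324303 fragments against 27289266 in MG132, 28331486 with both drugs and 29717604 in DMSO, and its share cannot be told apart from that depth by the lists alone. Of the 1387 pseudogenes with a DMSO summit, 1018 also held an SHP1705 summit (73.4%), against 22.6% of all annotated pseudogenes. These 1018 were 27.0% of those held in SHP1705. The like share was 70.0% of the pseudogenes with an MG132 summit and 72.4% of those with a combination summit. The summits could lie anywhere in the gene, so the peaks themselves need not overlap.

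Peaks on pseudogenes were tall in SHP1705 and low in the other lists, each set against its own list. Their median pileup was 285 fragments in SHP1705, against 93 over all SHP1705 peaks. It was 112 against 148 in MG132, 125 against 199 with both drugs and 147 against 239 in DMSO. Among the 100 tallest peaks of a list, 69 lay on pseudogenes in SHP1705 and 0 in each of the other 3 lists. Among the 1000 tallest, the counts were 397 in SHP1705, 8 in MG132, 10 with both drugs and 18 in DMSO. Pseudogene peaks held 31.2% of the summed summit pileup of the SHP1705 list, 1.98% of that of MG132, 1.88% of that of the combination and 2.15% of that of DMSO.

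The 4569 members fell into short copies and long loci, and these behaved differently. Pseudogenes of at most 5000 bp, called compact here, carried 3183 members (69.7%) with a median pileup of 676 fragments and a median gene length of 1271 bp. On them the peak covered a median of 61.4% of the gene. It lay wholly inside the gene in 76.8% of cases and covered at least 90% of it in 592 (18.6%). The summits of compact members spread over the copy, with 411, 739, 899, 749 and 385 in the 5 equal parts taken along the chromosome. Longer pseudogenes carried 1386 members with a median pileup of 86 fragments, below the median of the whole list. Of the 397 members among the 1000 tallest peaks, 393 were compact. A summit in SHP1705 was found on 19.98% of 15198 compact pseudogenes, against 5.99% in DMSO, and on 49.9% of 1466 longer ones, against 32.5% in DMSO.

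Of the members, 1327 (29.0%) also lay within the span of a protein-coding gene, and these had a median of 471 fragments, against 222.5 for members in no protein-coding gene. Among compact members the medians were 703 inside a protein-coding gene and 666 outside, and among longer ones 132 inside and 79.5 outside. The RefSeq table gives gene spans without exons, so exon and intron were not assigned. Chromosome X had the highest share of its SHP1705 peaks on pseudogenes, 9.19% of 3002, and chromosome 20 the lowest, 3.02% of 2718.

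Most members had no counterpart in another list, though fewer than in the list as a whole. No peak of any other list overlapped 3408 members (74.6%), and the same held for 81.5% of all SHP1705 peaks. An MG132 peak overlapped 822 members (17.99%, against 11.7% of all SHP1705 peaks), a combination peak 746 (16.3%, against 10.3%) and a DMSO peak 776 (16.98%, against 10.0%). The order of these 3 shares depended on list length: with the 47822 tallest peaks of every list they were 9.54% for MG132, 9.97% for the combination and 21.4% for DMSO. All 4 lists held 520 members (11.4%, against 5.23%), and 506 of these were compact. Overlap was most frequent among tall members. With a DMSO peak were 2.99% of members under 100 fragments, 15.0% of those between 1000 and 3000, 70.3% of those between 3000 and 10000 and 95.1% of the 263 members of at least 10000. For SHP1705 peaks off pseudogenes the shares in the same ranges were 5.48%, 16.8%, 65.9% and 86.4%. At matched height the share was thus lower on pseudogenes below 3000 fragments and higher above.

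**Figure D1:**
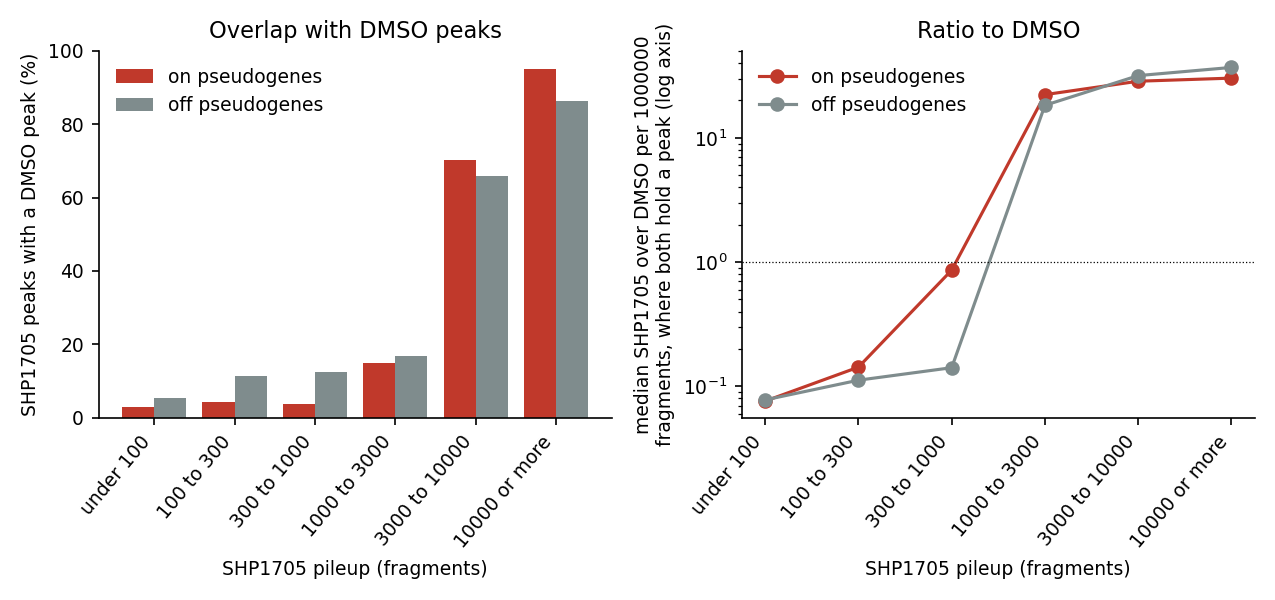
Left, the share of SHP1705 peaks with an overlapping DMSO peak, for peaks on pseudogenes (red) and off them (grey), in 6 ranges of SHP1705 pileup. Right, the median ratio of SHP1705 to DMSO pileup per 1000000 fragments where both lists held a peak (log axis, dotted line at 1). Above 1000 fragments the share rises with height for both kinds of peak, to 95.1% on pseudogenes and 86.4% off them in the tallest range.

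Most members with a peak in both lists were far taller in SHP1705, but low members were not. Per 1000000 fragments, 647 of 776 members were at least 2-fold higher in SHP1705 than in DMSO (83.4%, against 24.4% of all SHP1705 peaks with a DMSO peak), and 87 were at least 2-fold lower (11.2%, against 70.2%). Against MG132, 659 of 822 were at least 2-fold higher (80.2%, against 22.9%) and 119 at least 2-fold lower (14.5%, against 70.6%). Against the combination, 597 of 746 were at least 2-fold higher (80.0%, against 21.9%) and 104 at least 2-fold lower (13.9%, against 72.4%). The median ratio of SHP1705 to DMSO was 26.6 over the members, with the middle 50% between 16.1 and 33.0, and 0.127 over the 7850 peaks off pseudogenes. The gap between the 2 medians went with height: among peaks of at least 10000 fragments the median ratio was 30.3 on pseudogenes and 36.9 off them. Under 100 fragments it was 0.076 on pseudogenes and 0.078 off them, and 0 of 39 members were at least 2-fold higher. Between 100 and 300 it was 0.143 and 0.112, with 0 of 45 members. Between 300 and 1000 it was 0.861 and 0.141, with 8 of 32 members. Compact members had a median ratio of 27.4 and longer ones of 0.22. Of the 776 members with a DMSO peak, 113 were lower in SHP1705 than in DMSO. Of these, 59 lay on the longer pseudogenes, where 76 members had a DMSO peak.

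A depth limit applies to the members without a DMSO peak. The lowest DMSO peak had 13 fragments, or 0.437 per 1000000. The median ratio of 26.6 came from the 776 members with a DMSO peak, of which 660 had at least 1000 fragments. It need not hold for lower members. At that ratio, a member would need 1378 SHP1705 fragments to reach the lowest DMSO level, and 3427 members (75.01%) had fewer. For these, a level in DMSO in the same proportion was not detectable at this depth. Of the 1142 members above 1378 fragments, 651 had a DMSO peak (57.0%). The lists also differed in the narrowest peak that could be called, 299 bp in SHP1705, 354 bp in MG132, 355 bp with both drugs and 346 bp in DMSO, and 379 members were narrower than 355 bp.

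MG132 and the combination stayed close to DMSO on these copies. Over the 520 members in all 4 lists, the median ratio to DMSO per 1000000 fragments was 28.8 in SHP1705, 1.03 in MG132 and 0.874 with both drugs. MG132 was at least 2-fold higher than DMSO at 29 of the 520 (5.58%, against 11.5% of all SHP1705 peaks in 4 lists) and at least 2-fold lower at 25 (4.81%, against 9.24%). The combination was at least 2-fold higher at 25 (4.81%, against 10.0%) and at least 2-fold lower at 28 (5.38%, against 11.2%). The library with both drugs received SHP1705 at the same dose as the SHP1705 library, and its median at these 520 members lay near that of DMSO. These members were required to hold a peak in every list, and the cause of the difference was not tested. The order of heights among the 520 members was alike in SHP1705 and DMSO (Spearman rho 0.79, a description across copies that share each library), while over 3971 peaks off pseudogenes in all lists it was -0.08.

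The tallest member covered EEF1A1P5 on chromosome 9, 133019443 to 133021062 (hg38), a copy of the gene for the factor that delivers aminoacyl-tRNA to the ribosome. EEF1A1P5 had 402266 fragments in SHP1705, 2995 in MG132, 2704 with both drugs and 3154 in DMSO, a ratio of 32.0 to DMSO per 1000000 fragments. The other 9 of the 10 tallest members stood above the median of 239 fragments over all DMSO peaks. They were likewise far taller in SHP1705, with the other 3 lists close together. Lower down this did not always hold: RPL10P16 had 69278 fragments in SHP1705, 452 in MG132, 414 with both drugs and 1187 in DMSO. A member's value in another list is that of the tallest overlapping peak, whose summit need not lie on the copy.

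TMSB4XP8 on chromosome 4, 90838630 to 90839103, is a copy of the gene for thymosin beta 4, which binds actin monomers. TMSB4XP8 had 304030 fragments in SHP1705, 1935 in MG132, 1614 with both drugs and 1803 in DMSO, a ratio of 42.4 to DMSO. FTH1P7 on chromosome 13, 22696044 to 22696771, copies the gene for the ferritin heavy chain, which oxidises and stores iron. FTH1P7 had 290730 fragments in SHP1705, 1257 in MG132, 1090 with both drugs and 1244 in DMSO, a ratio of 58.7. FTLP3 on chromosome 20, 4023732 to 4024551, copies the gene for the ferritin light chain. FTLP3 had 247291 fragments in SHP1705, 1040 in MG132, 810 with both drugs and 1023 in DMSO, a ratio of 60.7. The 2 ferritin ratios stood above those of the other 8 of the 10 tallest members, and over the 7 ferritin members with a DMSO peak the median was 40.9.

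Ribosomal protein copies made up 5 of the 10 tallest members. RPL13AP5 on chromosome 10, 96750279 to 96750885, had 262269 fragments in SHP1705, 1477 in MG132, 1425 with both drugs and 1761 in DMSO, a ratio of 37.4. RPLP1P4 on chromosome 2, 176200866 to 176201370, had 144057 in SHP1705, 867 in MG132, 787 with both drugs and 899 in DMSO, a ratio of 40.2. RPS2P5 on chromosome 12, 118246073 to 118246908, had 129927 in SHP1705, 816 in MG132, 750 with both drugs and 978 in DMSO, a ratio of 33.4. These are copies of genes for proteins of the large subunit, of its stalk and of the small subunit. RPS11P5 on chromosome 12, 132825690 to 132826223, had 113228 in SHP1705, 987 in MG132, 897 with both drugs and 1121 in DMSO, a ratio of 25.4. RPS18P5 on chromosome 3, 101576456 to 101576979, had 105280 in SHP1705, 877 in MG132, 771 with both drugs and 979 in DMSO, a ratio of 27.0. The last of the 10, TPT1P9 on chromosome 9, 118082757 to 118083371, copies the gene for translationally controlled tumor protein. TPT1P9 had 128887 in SHP1705, 941 in MG132, 772 with both drugs and 879 in DMSO, a ratio of 36.8.

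**Figure D2:**
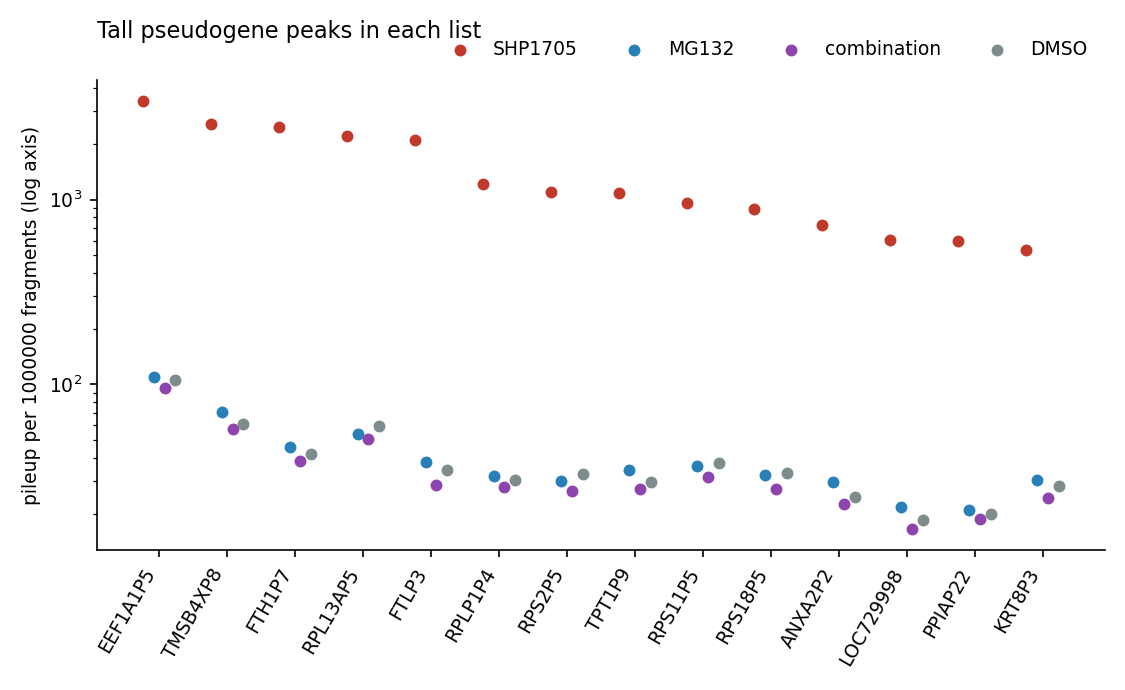
Pileup at the summit per 1000000 fragments (log axis) for the 10 tallest members and the next 4 members named as tallest of their class, with 1 point for each list. The SHP1705 points of all 14 copies lie above the points of MG132, the combination and DMSO, from EEF1A1P5 (402266 fragments in SHP1705, 3154 in DMSO) to KRT8P3 (62953 in SHP1705, 838 in DMSO).

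The ribosomal protein copies held a large part of the members' height. They gave 385 of the 4569 members (8.43%) but 36.6% of the members' summed pileup, and 47 of the 69 members among the 100 tallest peaks. The class had 246 members on copies of large subunit genes, with a median of 636 fragments, and 139 on copies of small subunit genes, with a median of 1463. An SHP1705 summit lay on 372 of 2001 annotated copies (18.6%), against 161 in MG132, 163 with both drugs and 159 in DMSO (7.95%). Over all pseudogenes the shares were 22.6% in SHP1705 and 8.32% in DMSO, and over compact ones 19.98% and 5.99%. Ribosomal protein copies were thus not held more often in SHP1705 than pseudogenes in general. Where a DMSO peak was present, 75 of 77 large subunit members and 50 of 52 small subunit members were at least 2-fold higher in SHP1705. The share was 24.4% over all SHP1705 peaks with a DMSO peak, and 94.2% over those off pseudogenes with 3000 to 10000 fragments.

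Nearly every ribosomal protein parent had at least 1 tall copy. The members pointed to 80 parents, and in 75 of them the tallest copy had at least 10000 fragments. The height of the tallest copy ran from 43 to 262269 fragments. Its median was 44570 fragments and the middle 50% of parents lay between 28001 and 59550. Lower values were found for parents that included RPL37 with 9719, RPL38 with 8223, RPSA with 5740 and RPL7L1 with 43. RPL7L1 encodes a relative of RPL7 that acts in ribosome assembly, and its symbol alone placed it in the class. The tallest copy had a DMSO peak for 73 of the 80 parents.

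The parent genes themselves did not show this height. A parent's own value is the tallest SHP1705 peak with its summit inside the gene, introns included. Of the 80 ribosomal protein parents, 66 had a peak of their own, with a median of 450 fragments, and 41 of these were under 1000. The tallest copy was taller than the parent's own peak in 65 of the 66, by a median of 95.9-fold. That copy was picked from all copies of a parent and set against a single gene, which favours the copy. The median member could lie on either side of the parent. It had 104 fragments in RPS2, with 5950 in the parent, and 5119 in RPS4X, with 133 in the parent. Among the large contrasts were RPS10, with 46393 fragments on RPS10P19 and 67 in the parent, RPL7A, with 63500 on RPL7AP6 and 160 in the parent, and RPS4X, with 48637 on RPS4XP2 and 133 in the parent. Parents with a tall peak of their own were fewer: RPL29 had 39888 on RPL29P4 and 22389 in the parent, RPL15 48988 on RPL15P3 and 19042 in the parent, and RPS6 31211 on RPS6P1 and 13636 in the parent. Over all 1409 parents with a coding gene, 1324 had a peak of their own, the copy was taller in 742 of them (56.0%), and the median ratio of copy to parent was 1.14. How reads that match both a copy and its parent's transcript were placed is not given in the sources used here, so heights of near-identical copies are uncertain.

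**Figure D3:**
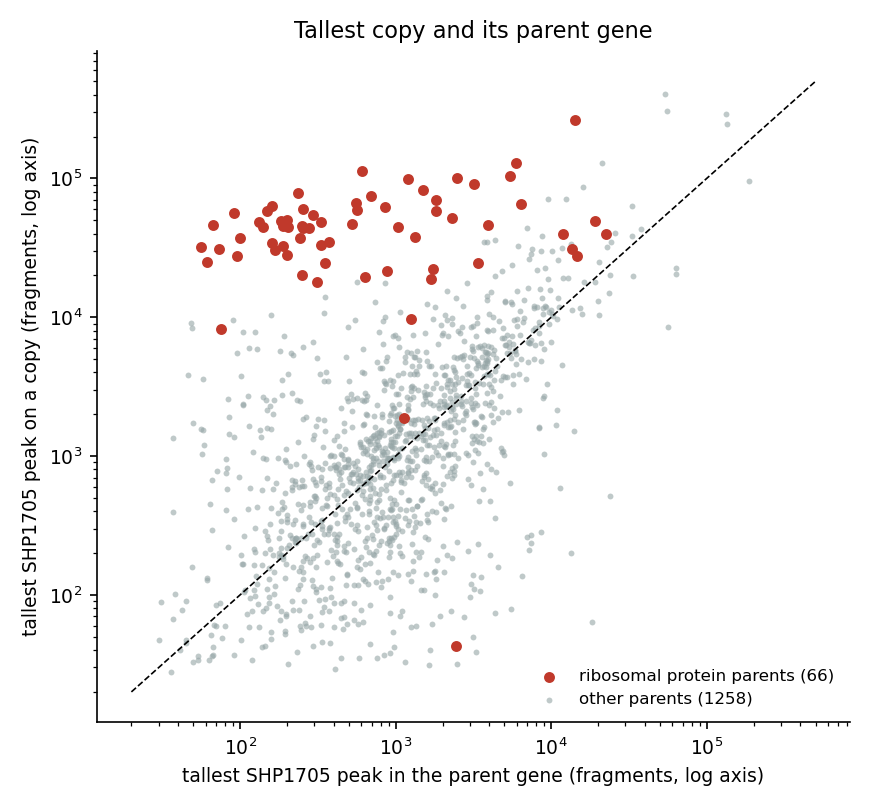
Each point is a parent gene with an SHP1705 peak of its own, placed by the tallest peak inside the gene (horizontal, fragments, log axis) and the tallest peak on any of its pseudogene copies (vertical, fragments, log axis). The dashed line marks equal heights. Of the 66 ribosomal protein parents (red), 65 lie above the line, while the 1258 other parents (grey) lie on both sides of it.

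Within a family the height sat in few copies. Among 31 ribosomal protein parents with at least 5 members, the tallest copy held a median of 72.9% of the family's summed pileup, against 52.2% over all 122 parents with at least 5 members. RPL21, the parent with the most annotated copies among these, had 137, and 8 of them were members: RPL21P16 had 30909 fragments, the next copy 22585 and the lowest member 52. RPL23A had 13 members from 84 to 46659 fragments, with the second tallest at 1550. RPL32 had 9 members, with 32949 on RPL32P18 and 437 on the next. The family of RPS6, a small subunit protein known as the target of S6 kinase, was the even one: its 8 members ranged from 1761 to 31211 fragments and the tallest held 26.3% of the sum. In RPS4X, 11 members ranged from 383 to 48637 fragments.

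Copies of a parent could have alike or unlike ratios between lists, as the RPS6 copies and other families show. RPS6P1 had 31211 fragments in SHP1705, 232 in MG132, 507 with both drugs and 215 in DMSO, a ratio of 36.5 to DMSO. RPS6P10 had 29423 in SHP1705, 233 in MG132, 237 with both drugs and 285 in DMSO, a ratio of 25.9. RPS6P25 had 12843 in SHP1705, 102 in MG132, 176 with both drugs and 105 in DMSO, a ratio of 30.7. Across the 5 RPS6 members with a DMSO peak the ratio lay between 20.8 and 36.5. The ratios to the combination were 14.7 for RPS6P1, 29.7 for RPS6P10 and 17.5 for RPS6P25. In RPS4X the ratio to DMSO ran from 15.0 to 48.0 over 6 members, in RPL13A from 29.8 to 105 over 3, in BTF3, from a subunit of the nascent polypeptide-associated complex, from 0.85 to 40.04 over 5 and in HMGB1, a chromatin protein gene, from 0.14 to 32.4 over 3.

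The other classes are given in the order of their roles, from protein synthesis to metabolism. Translation factors had 89 members, with a median of 1386 fragments, on 87 of 204 annotated copies (42.6%), against 39 in MG132, 29 with both drugs and 38 in DMSO. EEF1A1 had 15 members from 56 to 402266 fragments, with 59011 on the second tallest and 53808 in the parent gene. TPT1 had 66747 fragments on its second copy and 21333 in the parent. Copies of mitochondrial ribosomal proteins, which are encoded in the nucleus, had a median of 725 fragments over 30 members but none of the tall copies seen for the cytosolic ones. The tallest, MRPL3P1, had 2678 in SHP1705, 26 in MG132, 18 with both drugs and 30 in DMSO.

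Copies of genes for actin and its partners were held most often, and other cytoskeletal copies less so. In the class of actin and its partners, 70 of 115 annotated copies held an SHP1705 summit (60.9%), against 32 in each of MG132, the combination and DMSO, and the 71 members had a median of 3188 fragments. ACTBP2, a copy of beta actin, had 94929 fragments in SHP1705, 424 in MG132, 348 with both drugs and 450 in DMSO, a ratio of 53.0. Here the parent stood above its copies, with 186461 fragments in ACTB itself in SHP1705, 1816 in MG132, 1523 with both drugs and 1803 in DMSO. The tubulin and intermediate filament class had 58 members with a median of 129 fragments. KRT8, an epithelial keratin, was its main family, with 25 members on 23 of 52 copies. KRT8P3 had 62953 fragments in SHP1705, 830 in MG132, 684 with both drugs and 838 in DMSO, a ratio of 18.9, and 13 of the 25 members were under 100. Its partner KRT18 had 18 members, led by KRT18P11 with 8874 fragments in SHP1705, 172 in MG132, 119 with both drugs and 154 in DMSO, a ratio of 14.5. The 2 keratin copies thus had lower ratios to DMSO than any of the 10 tallest members.

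Ferritin copies had the highest median of any class, 15197 fragments over 14 members, on 14 of 47 annotated copies. FTH1 had 11 members from 191 to 290730 fragments, with 90445 on the second tallest, and a parent peak of 132612. Glycolytic enzymes had 41 members with a median of 1089, led by PKMP1, a copy of the pyruvate kinase gene, with 34698 fragments in SHP1705, 237 in MG132, 192 with both drugs and 470 in DMSO. GAPDH had 12 members on 12 of 63 copies, led by GAPDHP65 with 22553 fragments, while the parent gene held 63544. Copies of respiratory chain genes had 106 members with a median of 1891, led by COX6A1P2, from a subunit of cytochrome c oxidase, with 15396 in SHP1705, 113 in MG132, 103 with both drugs and 127 in DMSO.

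**Figure D4:**
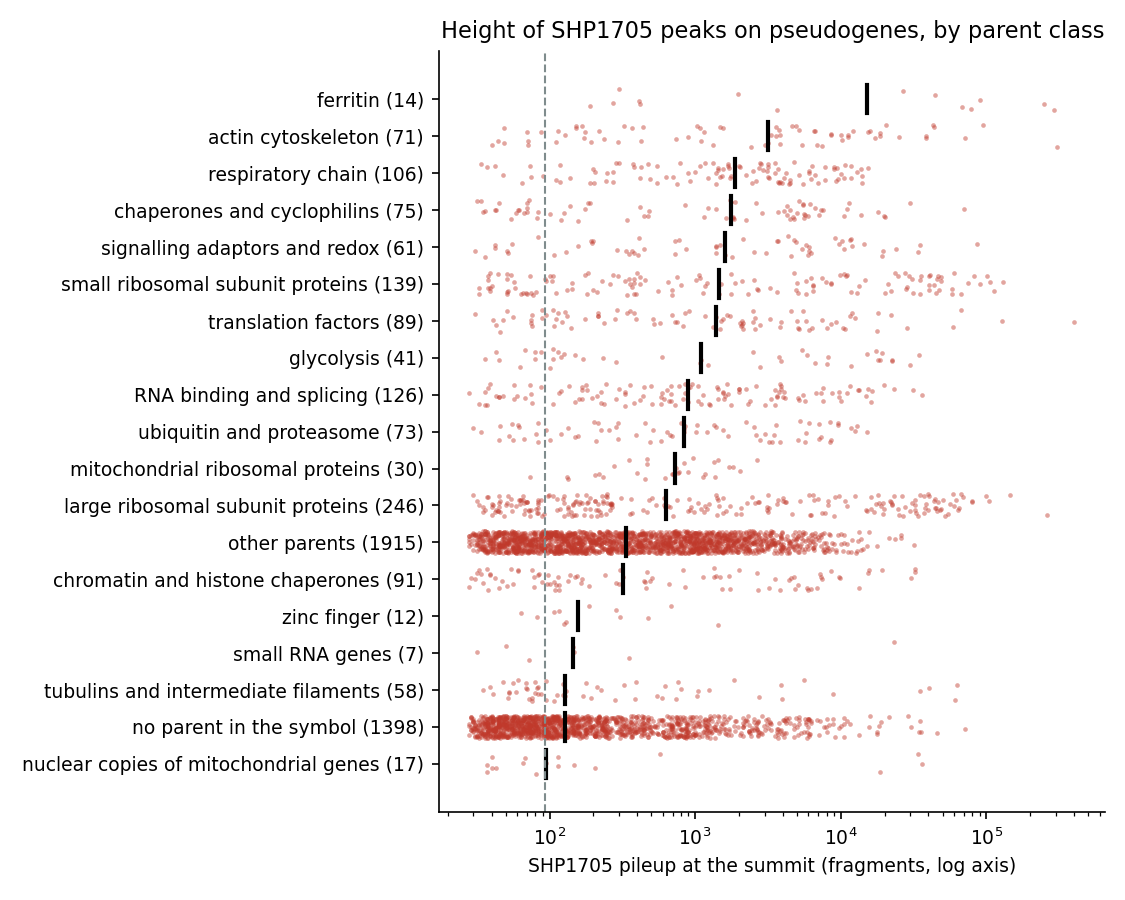
Each point is an SHP1705 peak on a pseudogene, placed by its pileup (fragments, log axis) in the row of its parent's class, with the number of members in brackets. Black bars mark class medians and the dashed line the median of all SHP1705 peaks, 93 fragments. Ferritin copies have the highest median (15197), and most classes reach over a wide range of heights.

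Genes of RNA and protein handling formed the next classes. RNA-binding and splicing proteins had 126 members with a median of 897, led by YBX1P1 with 35942 fragments in SHP1705, 317 in MG132, 281 with both drugs and 318 in DMSO. HNRNPA1, a splicing factor, had 23 members on 23 of 75 copies, led by HNRNPA1P7 with 31099 in SHP1705, 323 in MG132, 269 with both drugs and 441 in DMSO, and its parent held 7518. Chaperones and cyclophilins had 75 members with a median of 1774. PPIA, the cyclophilin A gene, had 10 members on 87 annotated copies, and PPIAP22 alone, with 70500 fragments in SHP1705, 572 in MG132, 530 with both drugs and 588 in DMSO, held 89.99% of the family's sum. Ubiquitin and proteasome genes, whose pathway MG132 inhibits, had 73 members with a median of 835, on 67 copies in SHP1705, 28 in MG132, 21 with both drugs and 23 in DMSO. ELOBP2 was the tallest of them, with 15203 in SHP1705, 128 in MG132, 91 with both drugs and 121 in DMSO.

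Chromatin proteins and histone chaperones had 91 members with a median of 320 fragments. NPM1, the gene for nucleophosmin, had 18 members, led by NPM1P27 with 32515 in SHP1705, 291 in MG132, 289 with both drugs and 365 in DMSO. Signalling adaptors and redox enzymes had 61 members with a median of 1614, led by ANXA2P2, a copy of the annexin A2 gene, with 86521 in SHP1705, 813 in MG132, 640 with both drugs and 732 in DMSO. Outside the listed classes, 1915 members had other parents and a median of 333 fragments. The tallest of these was IFITM3P2, a copy of an interferon-induced antiviral gene, with 31751 in SHP1705, 181 in MG132, 145 with both drugs and 156 in DMSO. A further 1398 members had symbols that name no parent, with a median of 128, and LOC729998 led them with 71451 in SHP1705, 593 in MG132, 467 with both drugs and 545 in DMSO.

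Some classes of pseudogene were almost without peaks. For the small RNA, chemosensory and zinc finger counts here, symbols ending in P with or without a number were taken. Antigen receptor segments were taken by biotype. Copies of small RNA genes held an SHP1705 summit at 8 of 946 loci, against 3 in MG132, 7 with both drugs and 4 in DMSO. Their median length of 119 bp was below the narrowest peak of any list. The tallest of the class, RNA18SP5, is a copy of ribosomal RNA of 1863 bp and not of a small RNA, and its symbol alone placed it there. It had 23320 fragments in SHP1705, 196 in MG132, 161 with both drugs and 261 in DMSO. Pseudogenes of olfactory and other chemosensory receptors, whose parents are silent in most tissues, held an SHP1705 summit at 19 of 589 (3.23%), against 19 in MG132, 18 with both drugs and 10 in DMSO, at a median length of 929 bp. Antigen receptor segments held one at 2 of 202, against 3 in MG132, 2 with both drugs and 2 in DMSO. Zinc finger pseudogenes were not of this kind: 31 of 88 held an SHP1705 summit (35.2%), against 14 in MG132, 13 with both drugs and 9 in DMSO. Their peaks had a median of 114.5 fragments, and ZFP91P1 was the tallest with 1434 fragments and no peak in another list.

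Nuclear copies of mitochondrial genes held an SHP1705 summit at 17 of 466, with a median of 95 fragments. MTND2P28 had 36140 fragments in SHP1705 and 484 in DMSO and no peak in MG132 or the combination. MTATP6P1 had 33909 in SHP1705 and no peak in the other 3 lists. Both lie on chromosome 1, MTATP6P1 at 633731 to 634196, and such copies can be nearly identical to the mitochondrial genome, so their reads are uncertain.

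**Figure D5:**
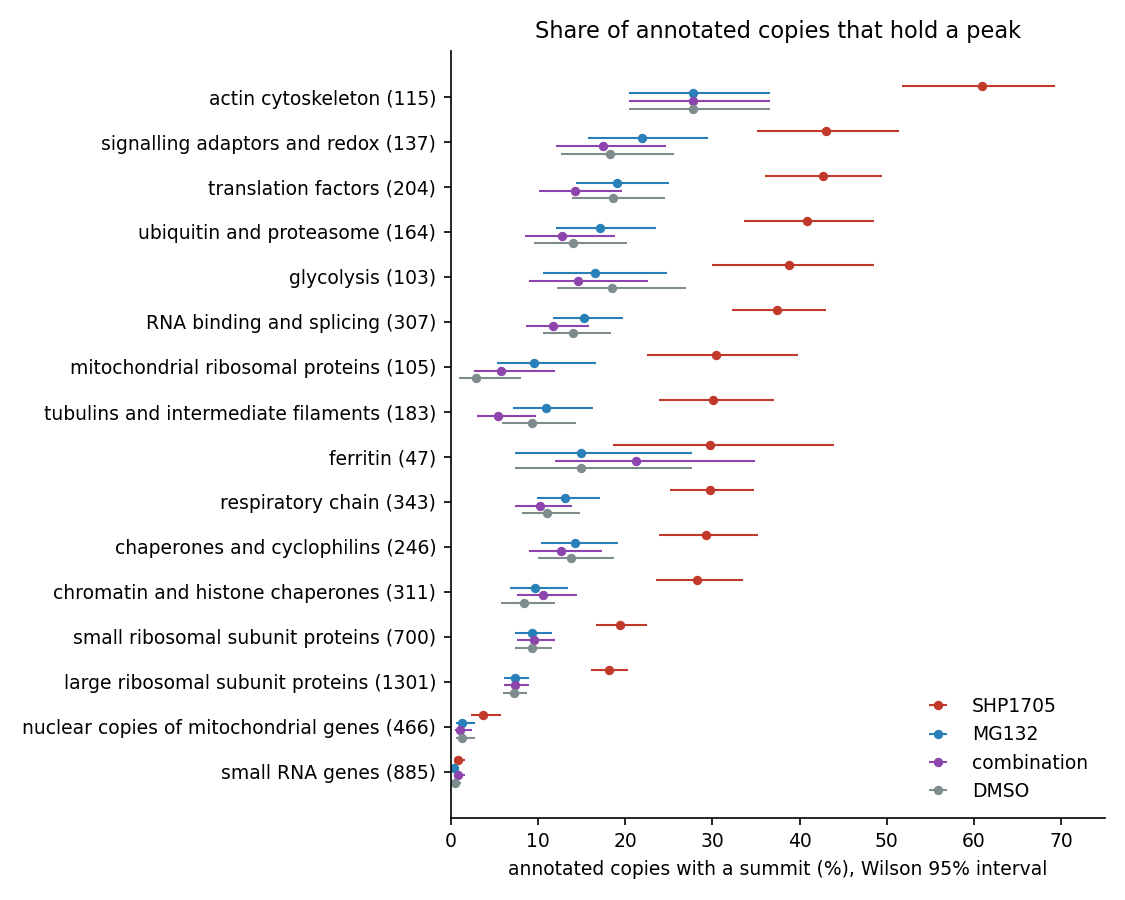
Share of annotated pseudogene copies of each class that held a peak summit (percent, with Wilson 95% intervals for counting error), for SHP1705, MG132, the combination and DMSO from top to bottom, with the number of annotated copies in brackets. Classes here take only symbols that end in P and a number. The SHP1705 share is highest for actin and its partners (60.9%), and lowest for small RNA genes, where all 4 lists are near 0.

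Some families with many members were low throughout in SHP1705. PKD1, the polycystin 1 gene, had the most members of any parent, 30 on its 6 annotated pseudogenes, yet they ranged only from 44 to 415 fragments, and the parent gene held 2113. The tallest, on PKD1P3, had 415 fragments in SHP1705 and no peak in another list. PDE4DIP had 25 members on 6 pseudogenes, from 34 to 458 fragments, all on loci over 5000 bp. GUSB had 20 members on 7 pseudogenes, led by GUSBP1 with 679 fragments in SHP1705, 412 in MG132, 328 with both drugs and no peak in DMSO. Per 1000000 fragments GUSBP1 was 0.38 times the MG132 level. CDC27 had 16 members on 10 pseudogenes, from 87 to 551, and BMS1 16 on 11, from 39 to 341. Other lists could stand higher: 6 CDC27 members had a DMSO peak, at SHP1705 to DMSO ratios of 0.063 to 0.089. The 1 GUSB member with a DMSO peak had a ratio of 0.070, and 3 PKD1 members had ratios from 0.083 to 1.51. No PDE4DIP or BMS1 member had a DMSO peak. In these 5 families the members outnumbered the pseudogenes that held them and none exceeded 679 fragments in SHP1705. In EEF1A1 and RPS2 each of 15 members lay on a copy of its own.

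A few copies stood at the ends of the range of ratios. Among members of at least 1000 fragments with a DMSO peak, RPL13AP2 had the highest ratio, with 15032 fragments in SHP1705, 35 in MG132, 35 with both drugs and 36 in DMSO, or 105-fold. MXRA7P1 followed at 90.4-fold, with 13675 in SHP1705, 42 in MG132, 43 with both drugs and 38 in DMSO. LOC100130582 had 67.1, BTNL12P 62.5 and FTLP3 60.7. At the other end EEF1B2P6 had 2091 fragments in SHP1705 and 1969 in DMSO, a ratio of 0.267, with no peak in MG132 or the combination. PARLP2 had 0.342, EEF1B2P2 0.511, LOC339966 0.555 and GAPDHP72 0.556. None of these 5 had a peak in MG132 or the combination. Their DMSO values are those of the tallest overlapping DMSO peak, whose summit need not lie on the copy. Whether such neighbouring summits gave the low ratios was not tested. Of the 660 members of at least 1000 fragments with a DMSO peak, 11 were lower in SHP1705 than in DMSO.

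Some tall members had no peak elsewhere. RPS27P3 had 40375 fragments in SHP1705, MTATP6P1 33909, RPL41P1 27493, RPL23P8 26791 and RPL39P3 23090, and none of them overlapped a peak of MG132, the combination or DMSO. The peaks on RPS27P3 and RPL23P8 were 328 and 315 bp wide, under the narrowest peak called in the other 3 lists. Those on RPL41P1 and RPL39P3, at 371 and 363 bp, were close to that width, and that on MTATP6P1 was 466 bp wide. Absence from the other lists is therefore not shown for the narrow copies.

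Markers of the cell line were looked up in the same way, as peaks and not as expression. VIM, the mesenchymal filament gene, had 69679 fragments in SHP1705, 263 in MG132, 197 with both drugs and 221 in DMSO. The epithelial keratin gene KRT8 had 33216 in SHP1705, 379 in MG132, 308 with both drugs and 393 in DMSO, so it stood above VIM in all lists but SHP1705. KRT18 had 9715 in SHP1705, 125 in MG132, 112 with both drugs and 156 in DMSO. The hormone receptor gene ESR1 had 354 in SHP1705, 247 in MG132, 435 with both drugs and 567 in DMSO. For the hormone receptor gene PGR the values were 51, 214, 609 and 100 in the same order. Peaks in a reporter assay of genomic fragments cannot check the identity of the cells.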

How the data were processed

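The authors deposited 1 peak list per library, and the members, classes and named genes were chosen with earlier results of these data known. The submitters' processing notes name Bowtie2, Trimmomatic, MACS2 and FastQC, and the hg38 build. Per the file headers, MACS 2.2.6 called peaks for each library alone, with no control, duplicates kept, a q limit of 0.01 and a local background over 10000 bp. The pileup of a peak is signal coverage at the summit, deposited without scaling for depth. The −log10 p-value and −log10 q-value, and the fold or ratio over local background, are the authors' and served only to describe or filter peaks. Peak and summit positions are as deposited.

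From these, summits were placed in RefSeq pseudogenes of GRCh38.p14, whose primary chromosomes share hg38 coordinates; the shortest pseudogene was taken for 197 summits in several. A parent is the symbol before the final P and number, matched to a protein-coding symbol or to an older symbol of 1 gene that starts alike, and 3097 members had one. Lists were compared by overlap of at least 1 bp and by pileup per 1000000 fragments, with a 2-fold threshold. Where several peaks of another list overlapped a member, the tallest was taken, wherever its summit lay. Named members were the 10 tallest, the tallest of each class and of each parent with at least 20 members or among the 10 with most members, the 5 whose lowest height over all lists was highest, the 5 highest and 5 lowest ratios to DMSO and the 5 tallest with no other peak; the RPS6 copies, single ribosomal families, ACTBP2 and GAPDHP65 were chosen after their values were seen. Scripts ran in Python 3.11.15 with pandas 2.3.3 and scipy 1.17.1, and the overlap code was tested on simulated intervals.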

Additional observations from a re-analysis of the deposited data

How the results depend on the processing

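No paired analysis was possible because each treatment had 1 library. The numbers of members and of pseudogenes held stayed within 1.5 times under the alternatives run, but among the tallest peaks the shares with another peak changed order. The share of SHP1705 summits on pseudogenes was 5.59% for any overlap, 3.71% on compact copies, 5.98% at a −log10 q of at least 10, 5.87% for peaks of at least 355 bp, 7.30% in the 47822 tallest peaks and 3.78% outside protein-coding genes. The shares with another peak, 16.98% for DMSO, 17.99% for MG132 and 16.3% for the combination, became 21.99%, 22.8% and 20.8% on compact copies, 21.4%, 9.54% and 9.97% in the tallest peaks, and 13.2%, 13.7% and 12.2% when the overlap had to cover 50% of both peaks. At 355 bp they were 19.2% for MG132 and 17.5% for the combination. The median height over that of all SHP1705 peaks, 3.06, was 7.27 on compact copies and 2.39 outside protein-coding genes, where members took 26.0% of the 1000 tallest. The share at least 2-fold higher than DMSO was 90.6% on compact copies, 86.7% in the tallest peaks, 91.5% under the stricter overlap, 88.7% unscaled and 92.0% when scaled by regions outside genes. Ribosomal protein copies were 11.4% of compact members and 7.56% outside protein-coding genes. The causes were not tested.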
